A study of Mus musculus with 20 samples.

Results

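The respiratory chain is the set of protein complexes in the inner mitochondrial membrane that pass electrons from food molecules to oxygen and store the energy as ATP. Its subunit genes were followed here in mouse embryonic stem cells with raised Klf5 and in single mouse embryos with lowered Klf5. The genes were taken by name from the GENCODE M21 annotation: protein-coding genes whose symbols begin with Ndufa, Ndufb, Ndufc, Ndufs or Ndufv and a number, Sdha to Sdhd, the Uqcr genes, Cyc1, Cycs, the Cox4 to Cox8 genes, the Atp5 genes, and the 13 protein genes of the mitochondrial genome. This gave 99 of the 30265 genes in each count table, 86 of them encoded in the nucleus and 13 in the mitochondrion. A further protein-coding identifier carried a matching name but stood in neither table. The names alone picked each gene, but the group as a whole was selected on results of these libraries, among them a lower share of mitochondrial counts after Klf5 siRNA. That share, the counts of members and the balance between genomes are therefore given as a description with no test, and the adjusted p-values printed for single genes come from fits over all genes.

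The first experiment held 4 libraries of embryonic stem cells (ESCs) derived from C57BL/6J mice and grown with LIF on irradiated fibroblast feeders, 2 overexpressing GFP and 2 overexpressing Klf5. The second held 16 libraries of single embryos at E4.5, embryonic day 4.5, from mice whose strain the labels write as C57BL/5J, 10 treated with a scramble siRNA and 6 with a Klf5 siRNA. Klf5 is a zinc-finger transcription factor of the early embryo and of ESCs. The labels do not say whether the ESC replicates were separate cultures, so the p-values measure the spread between these libraries, which may be technical.

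Complex I (NADH dehydrogenase) and complex II (succinate dehydrogenase) feed electrons into the chain. Complex III (cytochrome bc1) passes them to cytochrome c, the soluble carrier encoded by Cycs, and complex IV (cytochrome c oxidase) hands them to oxygen. Complex V (ATP synthase) is driven by the proton gradient that complexes I, III and IV build. Complexes I, III, IV and V mix subunits made from both genomes, whereas complex II is nuclear throughout. The mitochondrial genome is transcribed as long polycistronic RNAs that are cut into shorter RNAs, and most of the messages are polyadenylated. Each nuclear subunit gene has its own promoter. In the preimplantation embryo mitochondrial DNA replication is largely paused and oxidative metabolism rises toward the blastocyst stage.

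By complex, the nuclear genes were 37 of complex I, 4 of complex II, 9 of complex III, 18 of complex IV and 17 of complex V, with Cycs in none of them. The mitochondrial genes were 7 of complex I, 1 of complex III, 3 of complex IV and 2 of complex V. Ndufa4 and Ndufa4l2 are counted with complex I by name, although Ndufa4 protein is found in complex IV. Atp5s matches by name and is no subunit of the enzyme. Processed pseudogenes with matching names were left out (10 in the tables), and 1 of them, Ndufb4c, held 2846.4 counts on average in scramble embryos, so reads can be shared between it and Ndufb4.

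The mitochondrial genes lie end to end, and some neighbours share bases, so a read from a shared stretch fits both genes. On the same strand the overlaps are longest in 2 pairs, while mt-Atp6 and mt-Co3 share only base 8607. The end of mt-Atp8 and the start of mt-Atp6, both subunits of complex V, and the end of mt-Nd4l and the start of mt-Nd4, both of complex I, are printed with the shared bases in capitals. They are from GRCm38 (the same assembly as mm10), plus strand, at chrM:7870-7969, chrM:7927-8026, chrM:10114-10173 and chrM:10167-10226, all within coding sequence by GENCODE M21.
mt-Atp8: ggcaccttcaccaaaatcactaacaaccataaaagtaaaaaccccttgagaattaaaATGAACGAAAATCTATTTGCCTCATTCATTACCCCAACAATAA
mt-Atp6: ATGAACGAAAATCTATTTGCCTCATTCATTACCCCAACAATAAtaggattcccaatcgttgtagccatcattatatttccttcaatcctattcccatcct
mt-Nd4l: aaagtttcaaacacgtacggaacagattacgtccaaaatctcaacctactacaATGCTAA
mt-Nd4: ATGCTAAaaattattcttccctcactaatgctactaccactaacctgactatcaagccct
The shared stretch is 43 bases in the first pair and 7 bases in the second. Because mt-Atp8 and mt-Nd4l are among the shortest members (204 and 297 bases), how estimated counts are divided within a pair weighs more on them than on their neighbours.

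Library totals ran from 26775363 to 37482631 counts in ESCs and from 14701519 to 24939629 in embryos, and 15968 and 12385 genes were tested. The common biological coefficient of variation was 0.163 in ESCs and 0.739 in embryos. Klf5 was 75.6 ± 6.83 CPM (counts per 1e6 of the TMM-scaled library; SD, n = 2) with GFP and 912 ± 42.7 with Klf5 in ESCs, and 469 ± 65.7 (n = 10) with scramble and 223 ± 174 (n = 6) with Klf5 siRNA in embryos. The embryo labelled Klf5 siRNA 1 stood at 543 CPM, above the scramble median, and goes against its label. The library numbers of the scramble embryos all precede those of the siRNA embryos, so treatment and numbering cannot be told apart. ESC and embryo libraries were made with different kits and scaled separately, so levels set across the experiments are given side by side with no test.

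Mitochondrial messages took a far larger part of the RNA counted in embryos than in ESCs. The 13 genes held 0.656% and 0.810% of counts in the GFP libraries and 0.793% and 0.623% in the Klf5 libraries, so the ESC groups overlapped. In scramble embryos they held 12.1% ± 4.84 (SD, n = 10), from 4.34% to 18.5% with a median of 12.6%. In Klf5 siRNA embryos they held 5.02% ± 2.78 (n = 6), from 2.45% to 10.3% with a median of 4.23%. The embryo groups overlapped: scramble embryos 5 and 6, at 4.34% and 5.48%, lay within the siRNA range, and Klf5 siRNA embryo 2 was the highest of its group. The embryo labelled Klf5 siRNA 1, with Klf5 at the control level, held 5.30%.

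The nuclear genes did not follow that course. They held 1.45% of counts in both GFP libraries and 1.53% and 1.52% in the Klf5 libraries. Their share was 5.37% ± 1.17 in scramble embryos, between 3.22% and 6.95%, and 6.33% ± 1.47 in siRNA embryos, between 4.04% and 7.84%. Counts per kilobase of transcript, summed over each genome, gave a mitochondrial to nuclear ratio of 0.404 and 0.495 with GFP and of 0.429 and 0.334 with Klf5. In scramble embryos the ratio was 1.82 ± 0.572, from 1.17 to 3.01, and in siRNA embryos 0.679 ± 0.434, from 0.238 to 1.48. Klf5 siRNA embryo 2 alone of the 6 lay within the scramble range. Scramble embryos 5 and 6 were the lowest of their group in the share of both genomes, and at 1.27 and 1.30 their ratios were near the lower end of the scramble range. In whole embryos fewer cells of a type and less RNA per cell cannot be told apart.

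**Figure D1:**
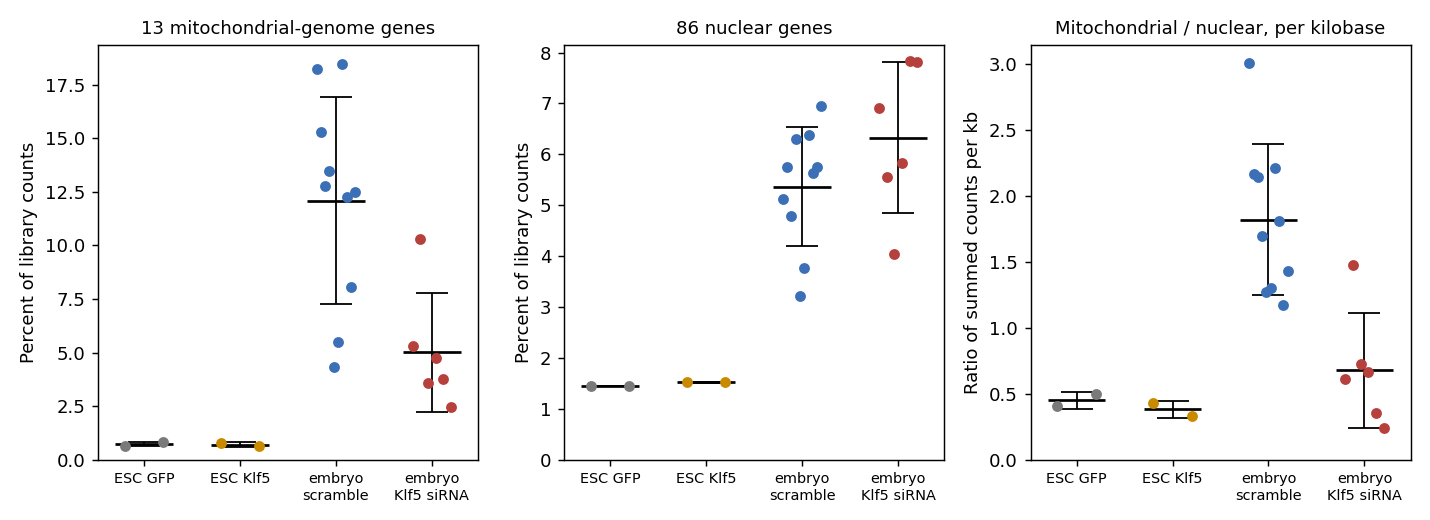
Percent of library counts from the 13 mitochondrial genes (left), percent from the 86 nuclear genes (middle) and the ratio of summed counts per kilobase between both genomes (right), each point 1 library, bars the group mean and whiskers 1 SD. Mitochondrial percent averaged 12.1 in scramble and 5.02 in Klf5 siRNA embryos with overlap of the groups, and only Klf5 siRNA embryo 2 reached into the scramble range of the ratio.

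Of nuclear counts per kilobase, complex I held 28.8% ± 2.50 in scramble and 31.3% ± 2.30 in siRNA embryos, complex III 21.0% ± 2.88 and 21.5% ± 2.62, complex IV 24.2% ± 3.04 and 22.1% ± 2.26, and complex V 24.2% ± 1.58 and 23.8% ± 1.09. Complex II, with 4 genes, held 1.35% ± 1.09 and 1.00% ± 0.540. For every complex the ranges of scramble and siRNA embryos overlapped. In ESCs complex IV led with 33.1% ± 0.480 under GFP and 32.1% ± 0.0804 under Klf5, and complex III held only 9.59% ± 0.520 and 10.4% ± 0.328. Among the mitochondrial genes, mt-Co3, a core subunit of complex IV, took 37.2% ± 8.17 of the mitochondrial counts in scramble and 37.6% ± 8.67 in siRNA embryos, against 5.69% ± 0.893 and 4.07% ± 0.563 in GFP and Klf5 ESCs.

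In ESCs the mitochondrial messages were lower with Klf5 for 12 of 13 genes by the fitted change, and 3 passed the test. The 3 that fell encode cytochrome b of complex III, a small membrane subunit of complex V and a core membrane subunit of complex I. The exception in sign was mt-Co1, the catalytic subunit of complex IV. Of all genes tested, 1.11% fell and 1.67% rose at an adjusted p under 0.05 (edgeR quasi-likelihood test, Benjamini-Hochberg), 2.78% in all, and nothing is read from the 3 of 13 beyond those genes. The median log2 fold change was -0.48 over the 13 and -0.0025 over all genes.

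Cytochrome b (mt-Cytb) stood at 605 and 619 CPM with GFP and at 364 and 340 with Klf5, a log2 fold change of -0.80 ± 0.11 (SE; edgeR adjusted p = 0.0295). Both Klf5 libraries lay below both GFP libraries. The complex V subunit mt-Atp8, whose end is printed above, went from 66.4 and 76.5 CPM to 42.9 and 40.0 (-0.79 ± 0.13, adjusted p = 0.0347). The complex I core subunit mt-Nd1 went from 707 and 647 CPM to 450 and 410 (-0.65 ± 0.12, adjusted p = 0.0451). In both of these the groups were apart as well.

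The other mitochondrial genes did not pass. The complex I subunits mt-Nd2, mt-Nd4 and mt-Nd4l had log2 fold changes of -0.48, -0.47 and -0.47 with adjusted p of 0.0704, 0.0749 and 0.0688. For mt-Nd4 this was 408 and 406 CPM with GFP and 311 and 275 with Klf5. The complex IV subunit mt-Co2 was at -0.53 (adjusted p = 0.0695), and mt-Co3 and mt-Atp6, at -0.62 and -0.61, had adjusted p of 0.209 and 0.117. Cells with Klf5 held 4298 and 3526 CPM of mt-Co1 against 2784 and 3690 with GFP (0.27 ± 0.19, adjusted p = 0.419), and these overlapped. As a share of mitochondrial counts, mt-Co1 was 39.9% and 45.5% with GFP and 57.5% and 56.7% with Klf5. In 11 of the 13 genes both Klf5 libraries lay below both GFP libraries, beside 27.4% of all genes tested.

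The calls of these 3 genes changed with the setting more than their folds did. Without GFP library 1 or GFP library 2 none of the 3 was called, at log2 fold changes of -0.82 and -0.78 for mt-Cytb, -0.89 and -0.68 for mt-Atp8 and -0.59 and -0.72 for mt-Nd1, while the calls among all genes went from 444 to 1 and 169. The call of mt-Nd1 was also lost without either Klf5 library. DESeq2 called 8 of the 13 as falling, beside 4.60% of all genes. With an offset for transcript length only mt-Cytb was called (-0.74), beside 2.81% of all genes called and 1.19% falling. There mt-Nd1 was at -0.55 (adjusted p = 0.0661) and mt-Atp8 at -0.37 (adjusted p = 0.237). Markers of fibroblasts, the cell type of the feeders, differed in level too: their sum was 616 to 778 CPM with GFP and 1116 to 1122 with Klf5, 1 of 7 tested rose, and none of the 8 was at 0 throughout a group. Trophectoderm markers summed to 815 to 1736 CPM with GFP and 291 to 641 with Klf5 (0 of 8 called). Most of that sum was Krt8 (mean 600 and 189 CPM) and Krt18 (541 and 130). Gata3 and Elf5 were lower in mean too. Eomes (4.80 and 8.27), Tead4 (32.4 and 39.8) and Tfap2c (90.3 and 94.8) were higher, and Cdx2 was 1.19 and 1.21. Epiblast and ESC markers summed to 5281 to 5408 CPM with GFP and 6223 to 6668 with Klf5 (0 of 8 called). Primitive endoderm markers summed to 47.8 to 52.2 and 140 to 319 (3 of 8 rose). Their part in the mitochondrial result was not tested.

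**Figure D2:**
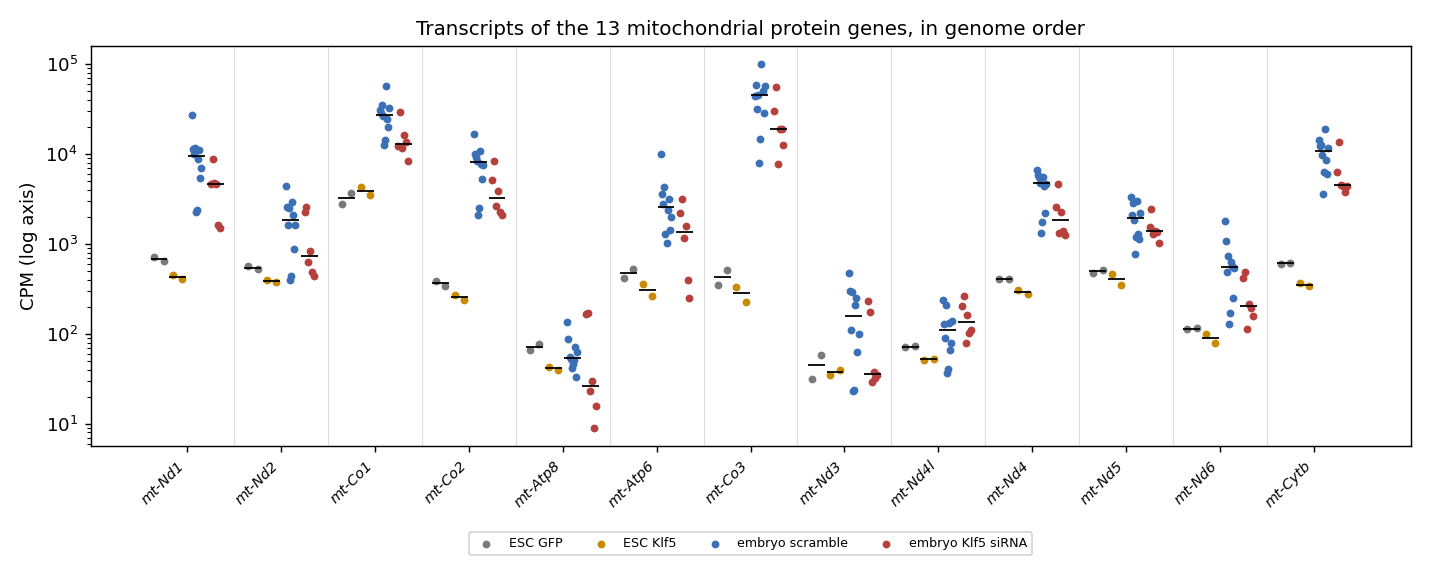
CPM on a log axis for the 13 mitochondrial protein genes in genome order, each point 1 library and each bar the group median. In ESCs both Klf5 points lie below both GFP points for 11 genes but not for mt-Co1, and in embryos the siRNA and scramble points overlap for every gene.

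The nuclear genes in ESCs gave no call. Of the 86, 83 passed the filter on low counts, and Cox7b2, Cox8b and Cox8c, which are isoforms of complex IV subunits, did not, with at most 0.218 CPM in any ESC library. None of the 83 rose or fell by edgeR, 6 had an unadjusted p under 0.05 (23.2% of all genes did), and DESeq2 called 2 higher and 1 lower (5.75% and 4.60% of all genes). Log2 fold changes ran from -0.48 to 0.49 with a median of 0.01. The medians by complex were 0.04 for complex I, 0.04 for complex II, 0.07 for complex III, -0.19 for complex IV and -0.06 for complex V.

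The smallest p-values among the higher nuclear genes belonged to Ndufc2, an accessory subunit of complex I, Uqcrfs1, the Rieske iron-sulfur protein of complex III, and Sdhb, the iron-sulfur subunit of complex II. Ndufc2 was 69.6 and 74.6 CPM with GFP and 96.5 and 105 with Klf5 (0.49 ± 0.11, adjusted p = 0.0667). Uqcrfs1 was 57.3 and 65.8 against 84.2 and 86.6 CPM (0.47 ± 0.12, adjusted p = 0.0793). Sdhb was 123 and 138 against 172 and 154 CPM (0.33 ± 0.12, adjusted p = 0.161). All 3 had groups apart in these 4 libraries, and none passed. Groups were apart in that direction for 22 of the 83 nuclear members tested, beside 28.9% of all genes.

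Among the lower ones were Cox6b2, the testis form of a complex IV subunit, Atp5c1, the central stalk subunit of complex V, and Cox4i1, the widespread form of complex IV subunit 4. Cox6b2 was 127 and 120 CPM with GFP and 92.9 and 96.8 with Klf5 (-0.38 ± 0.11, adjusted p = 0.0942). Atp5c1 was 190 and 175 against 154 and 145 CPM (-0.29 ± 0.11, adjusted p = 0.179), and Cox4i1 611 and 553 against 451 and 507 (-0.28 ± 0.13, adjusted p = 0.235). None of these passed either.

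In Klf5 siRNA embryos nuclear subunit genes of complexes I, IV and V rose, while Sdha, Atp5a1, Ndufs1 and Cox6a2 fell. Of 83 tested, 24 rose, 4 fell and 55 did not pass, beside 12.0% of all genes rising and 7.74% falling (19.8% called). The median log2 fold change was 0.64, against -0.01 over all genes, and -0.0018 with the length offset, which removes from each library its smooth relation of count to transcript length. The 24 that rose were 16 of 36 in complex I, 4 of 16 in complex IV and 4 of 17 in complex V. The 4 that fell lay 1 each in complexes I (Ndufs1), II (Sdha), IV (Cox6a2) and V (Atp5a1). Cox6a2, at 0 in all siRNA embryos, passed the filter on low counts only through the scramble embryos. Its call is therefore not read as support in any run. No gene of complex III passed in either direction, and 2 of its 9 had an unadjusted p under 0.05, beside 33.2% of all genes.

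Transcript length moved with these changes. The nuclear subunit genes are short, with a median longest coding transcript of 863 bases against 2937.5 over the genes tested. Under 1 kilobase, 17 of 48 nuclear members rose (median log2 fold change 0.79), beside 35.1% of all genes of that length (median 0.93). From 1 to 3 kilobases the members' median was 0.36 with 7 of 31 rising, and that of all genes 0.17 with 14.8% rising. Over 3 kilobases the order was different: the 4 nuclear members had a median of 0.37 with 3 above 0 and none called, and all genes one of -0.28 with 5.63% rising. Of the called members Sdha (2900 bases), Atp5a1 (2674 bases) and Ndufs1 (2661 bases), which fell, are the longest. Across genes, which are not independent replicates and share the same libraries, the Spearman correlation of fold change with length was -0.42 over the 83 members and -0.31 over 12292 genes (Pearson, against log2 length, -0.21 and -0.28). With the length offset 2 nuclear members rose and 5 fell (10.7% and 4.98% of all genes), and 5 of the 28 calls were shared: Ndufs8, Sdha, Ndufs1, Atp5a1 and Cox6a2.

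**Figure D3:**
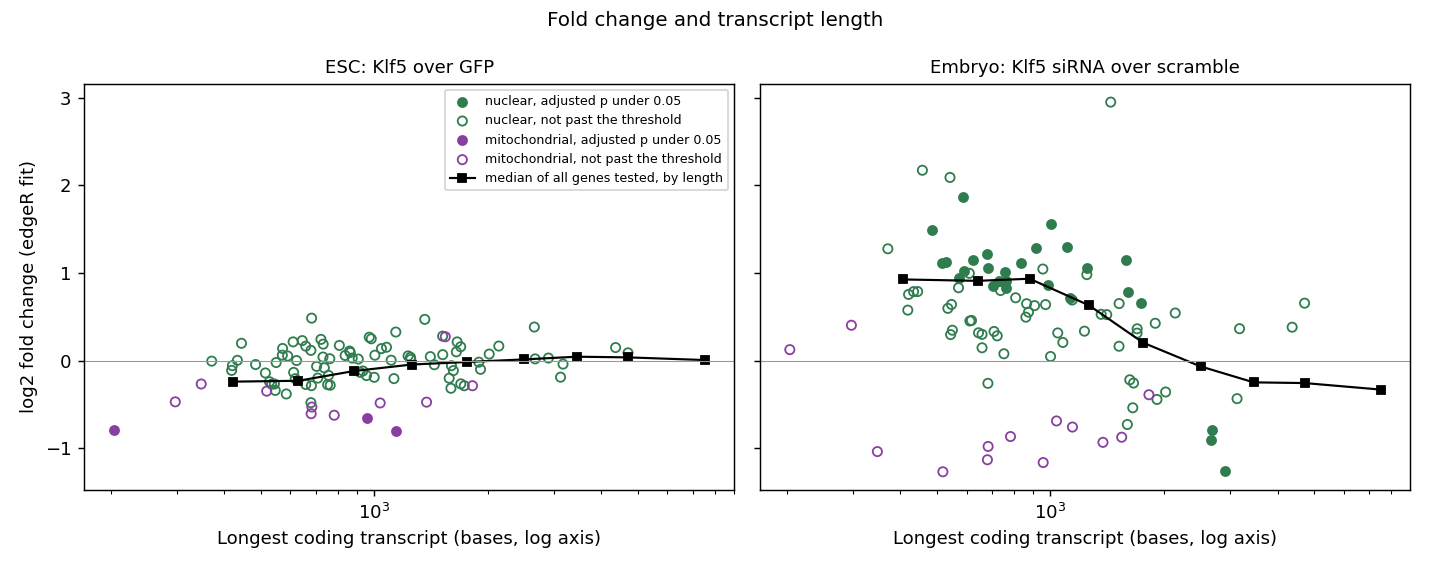
Log2 fold change of each member against the length of its longest coding transcript on a log axis, in ESCs (left) and embryos (right), filled where the adjusted p was under 0.05, with squares for the median of all genes tested in bins of length. In embryos the median is 0.93 over all genes under 1 kilobase and -0.28 over those above 3 kilobases, against 0.79 and 0.37 over nuclear members of those lengths and -0.87 over the 13 mitochondrial members (204 to 1824 bases). Cox6a2, at 0 in all siRNA embryos, is not drawn in the right panel.

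**Figure D4:**
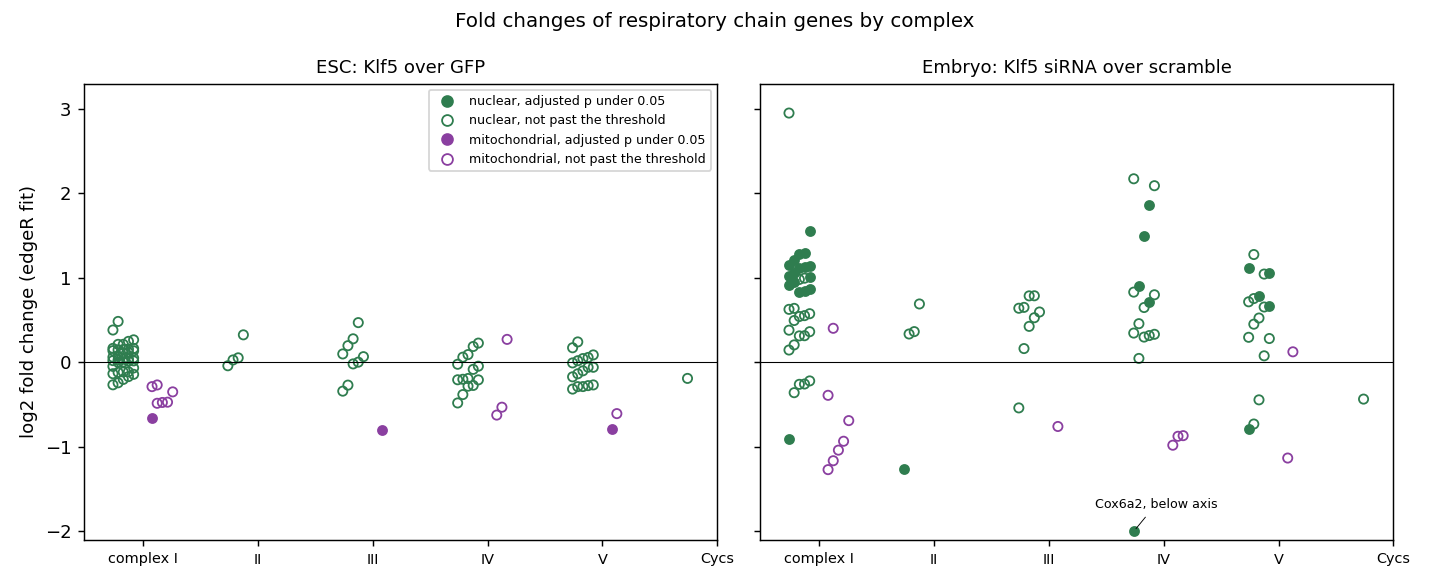
Log2 fold change of every tested member by complex, nuclear genes in green and mitochondrial genes in purple, filled where the adjusted p was under 0.05, Cox6a2 drawn at the lower edge because its fitted value lies beyond the axis. In embryos 24 nuclear genes rose (2 with the length offset), no mitochondrial gene passed, and complex III held no call.

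In complex I the smallest p was that of Ndufs8, which carries iron-sulfur clusters in the arm that takes electrons from NADH. Ndufs8 (chr19:3908863-3912774, minus strand) ranged from 146 to 358 CPM with a median of 235 in scramble embryos. After Klf5 siRNA it ranged from 561 to 863 with a median of 785, so no siRNA embryo came down to the highest control (log2 fold change 1.56 ± 0.21, 2.95-fold, edgeR adjusted p = 0.000117). With the length offset it was 0.90 (adjusted p = 0.00131), and it passed in every alternative run. Ndufs8 was also above the controls in the embryo labelled Klf5 siRNA 1, at 578 CPM.

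Ndufa12, an accessory subunit needed late in the assembly of the same arm, was 186 to 687 CPM (median 481) with scramble and 736 to 1287 (median 1194) with Klf5 siRNA. These groups did not overlap (1.29 ± 0.28, adjusted p = 0.00312), but the call was lost with the length offset (0.67, adjusted p = 0.0933). Only Ndufs8 and Ndufa12 of the nuclear members had every siRNA embryo above every scramble embryo, beside 2.91% of all genes.

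Ndufa13, an accessory subunit also known as GRIM-19, was 181 to 580 CPM (median 370) with scramble and 363 to 1044 (median 850) with siRNA (1.06 ± 0.24, adjusted p = 0.00465). Ndufs5, an accessory subunit on the intermembrane side, was 236 to 824 CPM (median 606) and 568 to 1863 (median 1372) (1.21 ± 0.28, adjusted p = 0.00478). Klf5 siRNA embryo 3 was the lowest of its group for both genes and lay inside the scramble range. Neither passed with the length offset (adjusted p = 0.199 for Ndufa13 and 0.138 for Ndufs5). Ndufb6, an accessory subunit of the membrane arm with the highest count per kilobase of complex I in scramble embryos (Ndufa7 was higher in siRNA embryos and in ESCs), was 472 to 2998 CPM (median 1269) with scramble and 488 to 2665 (median 1494) with siRNA (0.15, adjusted p = 0.826).

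Ndufs1, the largest subunit of complex I and a carrier of several iron-sulfur clusters, fell. It was 51.7 to 135 CPM (median 63.9) with scramble and 28.5 to 52.2 (median 38.4) with siRNA (-0.90 ± 0.24, adjusted p = 0.0132). A single siRNA embryo, number 4 at 52.2 CPM, reached the lowest control at 51.7. Of the 7 nuclear core subunits, which carry out the electron transfer, 2 rose (Ndufs7 and Ndufs8) and 1 fell. Of 29 accessory subunits tested 14 rose and none fell, beside 12.0% of all genes rising and 7.74% falling. This split was made after the values were seen. Many accessory subunits have transcripts under 1 kilobase, where 35.1% of all genes rose and 1.08% fell. With the length offset 2 of all 83 nuclear members rose. Ndufv1, the core subunit that binds NADH, had 289 and 290 CPM in scramble embryos 5 and 6 and 51.9 to 96.2 in the other scramble embryos (log2 fold change -0.26, adjusted p = 0.702). Ndufa9, an accessory subunit, was at 0 in 8 of 10 scramble embryos, the exceptions being embryos 5 and 6 at 11.5 and 23.8 CPM, and above 0 in 5 of 6 siRNA embryos, up to 61.0 (adjusted p = 0.181).

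Complex II held 1 call. Sdha (chr13:74322254-74350280, minus strand), the flavoprotein that oxidises succinate, was 123 to 239 CPM (median 151) with scramble and 56.2 to 90.0 (median 69.3) with siRNA. No siRNA embryo reached the lowest control (-1.26 ± 0.21, 2.39-fold lower, adjusted p = 0.000484), and the fall stood with the length offset (-1.01, adjusted p = 0.00146). Its partner Sdhb, the iron-sulfur subunit, was 153 to 534 CPM (median 313) and 421 to 696 (median 530), a log2 fold change of 0.69 (adjusted p = 0.0695). The membrane anchors Sdhc and Sdhd were at 0.36 and 0.34 (adjusted p of 0.524 and 0.294). The 4 subunits, which assemble in equal number, did not share a direction in these fits.

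Complex III had 8 of 9 nuclear genes fitted above 0, none called. Beside this, 6162 of all 12385 genes and 846 of the 1014 genes under 1 kilobase were fitted above 0. Uqcr10, a small subunit with the highest count per kilobase of the complex in scramble embryos, was 377 to 3554 CPM (median 2101) with scramble and 1392 to 5216 (median 3719) with siRNA (0.79, adjusted p = 0.172). Uqcrfs1 was at 0.53 (adjusted p = 0.121). Uqcrc2, a core subunit, was lowest per kilobase in scramble embryos (Uqcrc1 was in siRNA embryos) and stood at 0.43 (adjusted p = 0.307). With the length offset Uqcr10 was at -0.085, Uqcrfs1 at 0.10 and Uqcrc2 at 0.43, none of them called. The other core subunit, Uqcrc1, was 675 and 597 CPM in scramble embryos 5 and 6 and 57.2 to 188 in the other 8 (-0.54, adjusted p = 0.512).

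Complex IV rose in Cox4i1, Cox6b2, Cox7a1 and Cox7a2l, and fell in Cox6a2, all described with the paralogs. Cox8a, the most abundant per kilobase in scramble embryos though not in siRNA embryos, was 394 to 2416 CPM (median 1455) with scramble and 1227 to 2494 (median 1571) with siRNA (0.35, adjusted p = 0.475). Cycs, the carrier, was 264 to 1801 CPM (median 1098) and 477 to 1274 (median 790) (-0.43, adjusted p = 0.430).

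Complex V rose in Atp5o and Atp5h, both of the peripheral stalk that holds the catalytic head, and in Atp5f1 and Atp5c1. Atp5o was 530 to 1381 CPM (median 786) with scramble and 1359 to 3029 (median 1813) with siRNA, with 1 siRNA embryo just under the highest control (1.12 ± 0.23, adjusted p = 0.00222). Atp5h was 332 to 847 CPM (median 498) and 736 to 1752 (median 1130) (1.06 ± 0.23, adjusted p = 0.00315). With the length offset these were at 0.35 and 0.20 (adjusted p of 0.131 and 0.494). Atp5f1 and Atp5c1 were at 0.78 and 0.66, and Atp5c1 did not pass without Klf5 siRNA embryo 3, 4, 5 or 6 or scramble embryo 2 or 4 (adjusted p from 0.0527 to 0.0734).

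Atp5a1, the alpha subunit of the catalytic head, fell. It was 269 to 525 CPM (median 335) with scramble and 160 to 245 (median 225) with siRNA, with no overlap (-0.79 ± 0.21, adjusted p = 0.0111), and at -0.57 with the length offset (adjusted p = 0.0328). Atp5b, the catalytic beta subunit, was 650 to 1850 CPM (median 767) and 426 to 1004 (median 711) (-0.44, adjusted p = 0.275). Atp5a1 and Sdha were the 2 nuclear members with every siRNA embryo below every scramble embryo, beside 1.91% of all genes. Atp5j, another stalk subunit, had the highest count per kilobase of the complex and was at 0.72 (adjusted p = 0.218). Atp5s had the lowest, at 23.0 ± 13.4 and 13.8 ± 8.33 CPM (adjusted p = 0.221).

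The mitochondrial genes of the embryos were lower with Klf5 siRNA for 11 of 13 by the fitted change, with a median log2 fold change of -0.87, but edgeR called none of them. An unadjusted p under 0.05 was reached by 7 of the 13, beside 33.2% of all genes, and DESeq2 called 2 as falling, mt-Co1 and mt-Nd6, beside 10.4%. The smallest adjusted p was that of mt-Co1, which was 12652 to 56621 CPM (median 27304) with scramble and 8460 to 29212 (median 12990) with siRNA (-0.87 ± 0.33, adjusted p = 0.0652). The complex I subunit mt-Nd6, the only member on the other strand of the mitochondrial genome, was 129 to 1800 CPM (median 555) and 112 to 490 (median 206) (-1.27 ± 0.49, adjusted p = 0.0745). Per kilobase the most abundant was mt-Co3, at 8026 to 99990 CPM (median 45110) with scramble and 7726 to 55747 (median 19039) with siRNA (-0.87 ± 0.46, adjusted p = 0.200). The groups overlapped for each of the 13.

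Further down, mt-Nd4 was at -0.93 ± 0.37 (adjusted p = 0.0825), mt-Nd1 at -1.16 ± 0.48 (0.0962), mt-Co2 at -0.98 ± 0.41 (0.0972), mt-Cytb at -0.76 ± 0.35 (0.139) and mt-Atp6 at -1.13 ± 0.53 (0.143). The complex I subunits mt-Nd3, mt-Nd2 and mt-Nd5 were at -1.04, -0.69 and -0.39 with adjusted p of 0.271, 0.361 and 0.393. The 2 genes fitted above 0 were mt-Nd4l at 0.40 (adjusted p = 0.485) and mt-Atp8 at 0.13 (adjusted p = 0.894), which turned to -0.53 and -1.66 with the length offset. That offset called 9 of the 13 as falling, beside 4.98% of all genes. Leaving out libraries also changed the count: 5 fell without scramble embryo 5, 2 without scramble embryo 6, 7 without both, and 6 without Klf5 siRNA embryo 2.

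Of the overlapping pairs printed above, only mt-Nd4l and mt-Nd4 in embryos had groups apart in the ratio of the short partner to the long one. Per kilobase, mt-Nd4l over mt-Nd4 was 0.0683 to 0.200 (median 0.119) in scramble embryos and 0.263 to 0.409 (median 0.335) in siRNA embryos, without overlap. In ESCs, where the groups overlapped, this ratio was 0.815 and 0.830 with GFP and 0.766 and 0.890 with Klf5. The ratio of mt-Atp8 over mt-Atp6 was 0.0414 to 0.153 in scramble and 0.0628 to 0.254 in siRNA embryos, which overlapped, and 0.486 to 0.533 and 0.402 to 0.508 in GFP and Klf5 ESCs, which overlapped too. These ratios were looked at after the values were seen and carry no test.

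Other features moved with the embryo groups. Trophectoderm markers summed to 2129 to 8357 CPM with scramble and 186 to 2372 with Klf5 siRNA, and 6 of 8 fell. Epiblast markers summed to 124 to 392 and 160 to 355 CPM (1 of 8 fell). The means of Pou5f1 (52.5 and 114) and Nanog (27.6 and 51.0) were higher with siRNA. Those of Klf4, Esrrb, Tdgf1 (114 and 64.0), Utf1, Fgf4 and Sox2 were lower. Primitive endoderm markers summed to 343 to 630 and 241 to 498 CPM (2 of 8 fell). Most of that sum was Dab2 (mean 318 and 231), and only Cubn was higher in mean with siRNA (29.7 and 44.3). None of these markers was at 0 throughout a group. Fibroblast markers were near 0, at 0.0603 to 1.91 and 0.931 to 22.3 CPM in sum, with Lum at 0 in all 16 embryos, Postn at 0 in all scramble embryos and Dcn, Pdgfrb and Col1a2 at 0 in all siRNA embryos, and the 1 tested, Thy1, rose. Ribosomal protein genes, which are short as well, held 7.06% ± 1.69 of counts with scramble and 11.0% ± 2.35 with siRNA. Their part in the changes of the respiratory genes was not tested.

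Several subunits exist as a widespread form and as a form restricted to certain tissues. The ESC and embryo libraries differed in the forms that were counted. Fibroblast markers summed to 616 to 778 CPM with GFP and 1116 to 1122 with Klf5 in the ESC libraries, and to at most 22.3 in embryos. Forms held by ESCs and by feeders therefore cannot be told apart, and the kits differed as well. Ndufa4l2, known as a hypoxia-induced relative of Ndufa4, was 250 and 190 CPM with GFP and 209 and 197 with Klf5 in ESCs. In embryos it was at 0 in 15 of 16 libraries and at 0.0621 CPM in Klf5 siRNA embryo 6, where 3 counts correspond to between 0.0905 and 0.258 CPM in the embryo libraries (a limit for counting error alone, as reads copied by PCR do not each stand for a molecule). Ndufa4 was 11.1 to 19.3 CPM in ESCs and at most 4.10 in any embryo. Low values of a widespread gene may lie in the RNA or in how reads were assigned to genes, which was not tested. The same holds for Ndufa9 in scramble embryos. Idh3a, a gene of the citric acid cycle, averaged 0 CPM in both ESC groups. Cox4i2, the lung and hypoxia form of complex IV subunit 4, was 12.6 to 22.0 CPM in ESCs and at most 0.908 in embryos, whereas Cox4i1 stood at 451 to 611 CPM in ESCs.

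**Figure D5:**
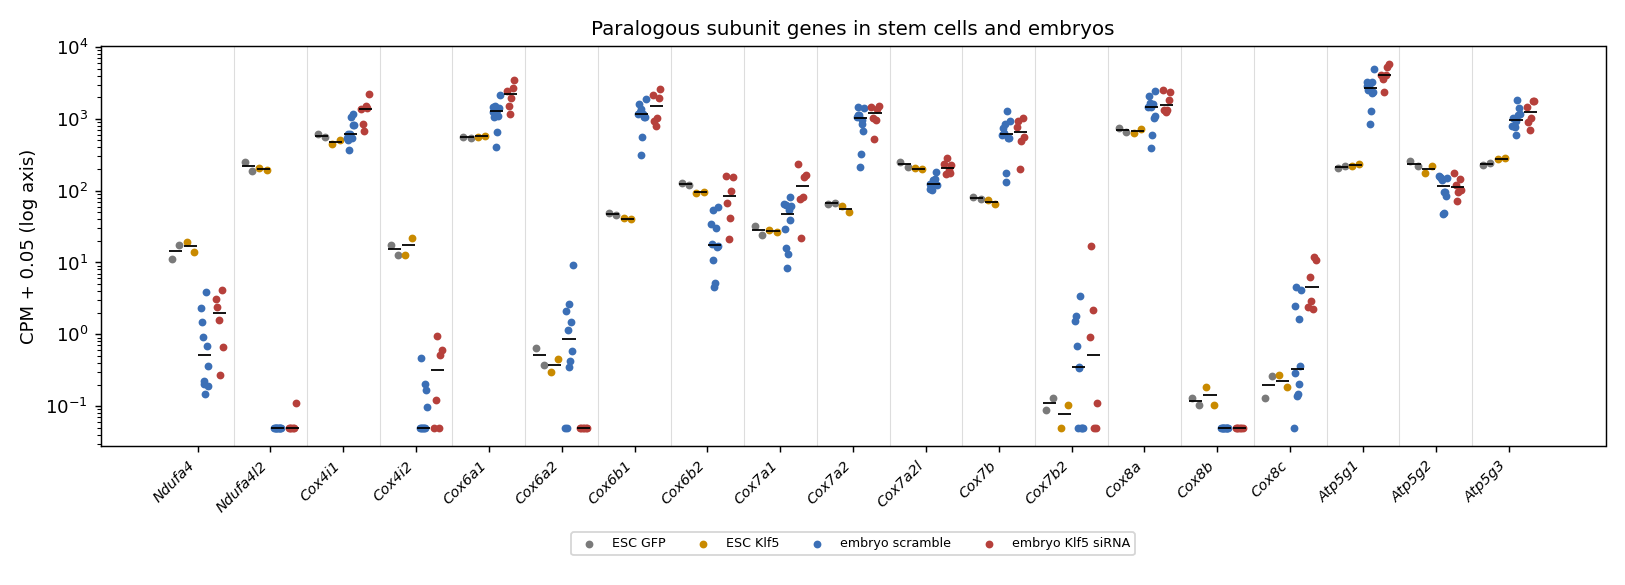
CPM plus 0.05 on a log axis for paralogous subunit genes, each point 1 library and each bar the group median, with the lowest position standing for 0. Ndufa4l2 and Cox4i2 are at 190 to 250 and 12.6 to 22.0 CPM in ESCs and at most 0.908 CPM in embryos, and Cox6a2 is at 0 in all siRNA embryos.

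In embryos Cox4i1 was 369 to 1151 CPM (median 621) with scramble and 667 to 2191 (median 1386) with siRNA (0.91 ± 0.27, adjusted p = 0.0240). Cox6b2 was 4.56 to 58.5 CPM (median 17.3) and 21.4 to 159 (median 83.3) (1.87 ± 0.51, adjusted p = 0.0142), while its widespread counterpart Cox6b1, at 313 to 1862 and 784 to 2569 CPM, was at 0.46 (adjusted p = 0.354). Cox7a1, the heart and muscle form, was 8.30 to 81.9 CPM (median 46.6) and 22.0 to 231 (median 117) (1.5 ± 0.47, adjusted p = 0.0299). Cox7a2l, which helps join complexes III and IV, was 102 to 181 CPM (median 125) and 169 to 282 (median 209) (0.71 ± 0.18, adjusted p = 0.00998). Cox7a2, the widespread form, was at 0.30 (adjusted p = 0.578). With the length offset none of these 4 rises passed: Cox6b2 was at 1.01 (adjusted p = 0.0717), Cox7a1 at 0.55 (0.255), Cox7a2l at 0.11 (0.685) and Cox4i1 at 0.05 (0.924). Leaving out 1 embryo also ended the call of Cox7a1 (scramble embryo 2, or Klf5 siRNA embryo 1, 5 or 6; adjusted p from 0.0505 to 0.0926) and of Cox4i1 (Klf5 siRNA embryo 6, adjusted p = 0.0866).

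Cox6a2, the heart and muscle form of complex IV subunit 6a, was at 0 in all 6 siRNA embryos. It had counts in 8 of 10 scramble embryos, up to 9.17 CPM, with a median of 0.820. Against a floor of 3 counts per library (0.194 CPM on average), the scramble mean of 1.76 CPM was at least 9.07-fold higher (edgeR adjusted p = 0.00813). The gene passed the filter on low counts only through the scramble embryos, so this p-value is not read as support. Without scramble embryo 10, the highest, the mean was 0.931 CPM and the bound 4.81-fold. Cox6a1, the widespread form, was 402 to 2174 CPM (median 1280) and 1160 to 3435 (median 2192) (0.83 ± 0.30, adjusted p = 0.0549).

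The remaining isoforms gave no call without the length offset. Cox7b was at 0.05 (adjusted p = 0.952), while its testis relative Cox7b2 was at most 3.34 CPM with scramble and reached 16.9 in Klf5 siRNA embryo 2 (adjusted p = 0.296). Cox8c was 0 to 4.44 CPM with scramble and 2.18 to 11.8 with siRNA (2.17 ± 0.91, adjusted p = 0.0975), and Cox8b was at 0 in every embryo. The 3 genes for the ring subunit c of complex V, which make the same mature protein, were not in a fixed order of level in scramble embryos. Per kilobase of longest transcript (4715 bases for Atp5g1) Atp5g3 was at 1445 CPM, Atp5g1 at 563 and Atp5g2 at 149. Per kilobase of the union of exons Atp5g1 was at 540 CPM, Atp5g3 at 479 and Atp5g2 at 67.2. Their log2 fold changes were 0.28, 0.66 and 0.08 for Atp5g3, Atp5g1 and Atp5g2 (adjusted p of 0.480, 0.127 and 0.881). With the length offset Atp5g1 was at 1.03 (edgeR adjusted p = 0.0103). It and Ndufs8 were the 2 nuclear members that rose in that run. The offset took 4715 bases as the length of Atp5g1. In GFP ESCs Atp5g3 and Atp5g2 were at 327 and 317 CPM per kilobase of longest transcript.

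The promoters of nuclear subunit genes are known to carry sites for NRF1, for ETS factors such as GABP, and for YY1. The promoters of 3 genes that rose and 1 that fell are printed to show 2 of these motifs, with the motif in capitals, from RefSeq on GRCm38.p6, each from 250 bases before to 30 after the start: Ndufs8 at chr19:3912745-3913024 on the minus strand, Atp5h at chr11:115419890-115420169 on the minus strand, Ndufa11 at chr17:56717512-56717791 on the plus strand and Sdha at chr13:74350211-74350490 on the minus strand.
Ndufs8: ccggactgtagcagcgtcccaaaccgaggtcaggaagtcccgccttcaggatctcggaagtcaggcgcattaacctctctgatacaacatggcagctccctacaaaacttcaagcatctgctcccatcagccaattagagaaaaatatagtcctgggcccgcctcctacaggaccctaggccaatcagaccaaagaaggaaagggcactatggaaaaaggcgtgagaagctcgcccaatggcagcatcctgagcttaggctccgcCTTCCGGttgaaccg
Atp5h: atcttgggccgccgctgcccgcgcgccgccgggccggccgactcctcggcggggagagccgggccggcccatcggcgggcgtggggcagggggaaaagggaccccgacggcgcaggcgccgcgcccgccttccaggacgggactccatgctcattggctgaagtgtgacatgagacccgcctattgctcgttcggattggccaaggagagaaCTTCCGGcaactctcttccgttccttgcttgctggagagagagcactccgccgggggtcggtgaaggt
Ndufa11: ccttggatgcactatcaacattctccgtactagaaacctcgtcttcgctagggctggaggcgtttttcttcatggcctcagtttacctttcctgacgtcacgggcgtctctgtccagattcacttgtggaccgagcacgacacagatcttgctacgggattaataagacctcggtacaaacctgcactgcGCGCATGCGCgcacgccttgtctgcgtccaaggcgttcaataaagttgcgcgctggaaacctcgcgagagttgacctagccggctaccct
Sdha: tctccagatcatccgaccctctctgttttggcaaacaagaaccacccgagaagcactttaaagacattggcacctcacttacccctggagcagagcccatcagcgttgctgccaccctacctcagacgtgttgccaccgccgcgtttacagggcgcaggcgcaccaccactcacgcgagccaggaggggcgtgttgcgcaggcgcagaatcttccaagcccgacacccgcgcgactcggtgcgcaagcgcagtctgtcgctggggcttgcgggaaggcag
The capitals mark an ETS motif in Ndufs8 and Atp5h and an NRF1 motif in Ndufa11, and none of the motifs searched was found in the window of Sdha. The printed genes were picked by hand. Of other genes that rose, Ndufs7 had a YY1 motif, but Atp5o, Ndufa12, Ndufa13 and Ndufs5 had none of the motifs. Cox8a and Ndufb6 (ETS) and Uqcrc1 (NRF1) had a motif and were not called. Whether a motif goes with the direction of change was not tested. Ndufa11, an accessory subunit of complex I, was 218 to 1347 CPM (median 662) with scramble and 774 to 2602 (median 1618) with siRNA (1.29 ± 0.32, adjusted p = 0.00867).

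Of the 86 nuclear genes, 69 were matched to a 300-base promoter window. The NRF1 letters GCGCATGCG, or CGCATGCGC on the other strand, which overlap in Ndufa11, were in 9 of 69 (13.04%) and in 2.61% of 17491 genes with such a window. The ETS letters CCGGAAG, or CTTCCGG on the other strand, were in 16 of 69 (23.2%) and 12.9%. The YY1 letters AAGATGGCG, or CGCCATCTT, were in 7 of 69 (10.1%) and 2.14%. A match describes the letters and says nothing of binding in these cells.

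The genes that build and supply the chain were read from lists made with earlier results known. In ESCs edgeR called none of 48 assembly factors and none of 28 genes of mitochondrial DNA upkeep and RNA. It also called none of 10 regulators or of 15 genes of pyruvate dehydrogenase and the citric acid cycle, beside 2.78% of all genes. An unadjusted p under 0.05 was reached by 16, 4, 0 and 1 in these lists, beside 23.2% of all genes. DESeq2 called 4 of the first 76, beside 10.4% of all genes. In embryos 15 of 48 assembly factors rose and 4 fell (12.0% and 7.74% of all genes), with a median log2 fold change of 0.49. Coa3, which guides the making of mt-Co1 protein, was 238 ± 79.7 CPM with scramble and 732 ± 140 with siRNA (1.62 ± 0.23, adjusted p = 0.000131). Cox19, a copper-handling factor of complex IV, was at 1.51 ± 0.23 (adjusted p = 0.000226), and Ndufaf8, an assembly factor of complex I, at 1.65 ± 0.27 (adjusted p = 0.000412). Those that fell were Ttc19, Atpaf1, Cox15 and Acad9, named after their values were seen.

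The next 3 lists held few calls, beside 12.0% of all genes rising and 7.74% falling. Of the 28 genes of mitochondrial DNA and RNA only Ssbp1 passed, the protein that coats single-stranded mitochondrial DNA, at 369 ± 97.8 and 670 ± 248 CPM (0.86 ± 0.23, adjusted p = 0.0138), and the list's median was -0.20. Of 9 regulators tested Yy1 fell, from 59.99 ± 31.2 to 27.0 ± 8.94 CPM (-1.15 ± 0.38, adjusted p = 0.0376). Of 16 genes of pyruvate dehydrogenase and the citric acid cycle 2 fell, Dld at -1.14 ± 0.36 (adjusted p = 0.0295), the shared dehydrogenase subunit, and Ogdh at -0.73 ± 0.23 (adjusted p = 0.0302), the first subunit of the oxoglutarate dehydrogenase. With the length offset 13 of the 76 assembly and mitochondrial expression genes passed in place of 20, beside 15.6% of all genes in place of 19.8%.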

How the data were processed

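Polyadenylated RNA was measured in 4 ESC and 16 single-embryo libraries, with TruSeq v2 reagents for ESCs, the SMARTseq-V4 kit for embryos and NEBNext Ultra II libraries for all, per the labels' protocols. The authors deposited estimated counts (expected counts) per Ensembl gene, not scaled for library size, for which the submitters' processing notes name kallisto 0.46 and mm10. The annotation release and how transcripts were summed to genes are not given in the sources used here. Of 30265 identifiers 29831 were matched to GENCODE M21 symbols and 434 were not.

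Rounding to whole counts moved library totals by at most 0.000756%. Within each table genes were filtered with filterByExpr (lowest count 10), given TMM factors and fitted in edgeR 4.0.16 (R 4.3.3) by its quasi-likelihood method with robust dispersions, adjusted by Benjamini and Hochberg over all genes tested with a threshold of 0.05, leaving 2 (ESC) and 14 (embryo) residual degrees of freedom. CPM (counts per 1e6) and floors of 3 counts use TMM-scaled library sizes, and shares use total counts. Values per kilobase and the length offset (lowess span 0.3) use the longest coding transcript in GENCODE M21. On simulated counts the fit recovered 97.0% of genes changed 4-fold and 56.7% of those changed 2-fold in the ESC design (15968 genes), and 59.1% and 7.5% in the embryo design (12385 genes). False calls were 16 of 128 in the ESC design, a larger part than the threshold of 0.05, and 2 of 47 in the embryo design. The simulation changed 67 genes by 1.5-fold, 67 by 2-fold and 66 by 4-fold in each design. In the data 444 (ESC) and 2447 (embryo) genes were called, so these rates need not hold there. Alternatives were size factors and tests of DESeq2 1.42.0, no filter or one at 5 CPM, nuclear library sizes, the length offset, the union of exons as length, a replicate block and leaving out each library.

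The members, the lists of other pathway and marker genes and the tests were chosen with earlier results of these data known. Named genes were all mitochondrial genes, the nuclear genes highest and lowest per kilobase in each complex, those with the smallest p in each direction (up to 6 called, otherwise 3), all paralogous subunits, Cycs, Klf5 and up to 3 called genes of each other list. Ndufa9, Ndufa11, Ndufs7, Ndufv1, Uqcrc1, Sdhd, Atp5b and Atp5f1 were added after their values were seen. Promoters came from RefSeq on GRCm38.p6 and genome sequence from GRCm38.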

Additional observations from a re-analysis of the deposited data

Results flagged for a closer look

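In 106 groups of values from 4 to 10 libraries, 15 had 1 library far from the rest of its group, by the gap to the nearest other library as a part of the group's range; chance flags about 1 in 20 groups. Scramble embryo 1 stood apart in 3 mitochondrial genes, with 10098 CPM of mt-Atp6, 136 of mt-Atp8 and 26865 of mt-Nd1. Scramble embryo 7 stood apart with 56621 CPM of mt-Co1, 6037 of Atp5j, 56.1 of Atp5s and 3.34 of Cox7b2. Klf5 siRNA embryo 2 stood apart in the percent of counts from mitochondrial genes (10.3%), in mt-Cytb (13755 CPM), in mt-Nd5 (2429 CPM) and in Cox7b2 (16.9 CPM). Scramble embryo 5 was alone with 135 CPM of Ndufs1, scramble embryo 10 with 9.17 CPM of Cox6a2, scramble embryo 2 with 0.424 CPM of Cox4i2 and Klf5 siRNA embryo 6 with 0.0621 CPM of Ndufa4l2, the last 2 resting on a few counts.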

How the results depend on the processing

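The nuclear embryo counts (24 rising, 4 falling) depended most on transcript length: with the length offset 2 rose and the median log2 fold change was -0.0018. With that offset 9 mitochondrial genes fell and 13 assembly and mitochondrial expression genes passed, beside 15.6% of all genes called. Leaving out 1 embryo gave 16 to 27 rising and 3 to 4 falling nuclear genes, 0 to 6 falling mitochondrial genes and 2103 to 2470 genes called in all. The mitochondrial genes falling in embryos numbered 2 with no filter, 2 with DESeq2, 1 with nuclear library sizes, 3 without Klf5 siRNA embryos 2 and 4 and 7 without scramble embryos 5 and 6, the last 2 settings chosen after seeing the data. DESeq2 moved the median of all embryo genes by 0.11 on the log2 scale. The union of exons as length gave mitochondrial to nuclear ratios of 0.731 (GFP), 0.613 (Klf5), 2.98 (scramble) and 1.12 (siRNA), in the same order.

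In ESCs, leaving out 1 library gave nuclear medians from -0.0254 to 0.0542, 0 to 2 falling mitochondrial genes, 0 to 2 assembly and mitochondrial expression genes and 1 to 998 genes called in all, the 1 without GFP replicate 1. With no filter 1 nuclear gene rose, 2 assembly and mitochondrial expression genes passed (2 also at 5 CPM) and 870 genes were called. DESeq2 gave 2 rising and 1 falling nuclear, 8 falling mitochondrial, 4 assembly and mitochondrial expression genes and 1438 in all. The length offset gave 1 rising nuclear gene (Ndufc2), a nuclear median of 0.096 and 1 falling mitochondrial gene.

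Replicate numbers did not pair the libraries: same-numbered deviations correlated at -0.108 in ESCs and at -0.114 to 0.108 in embryos, where 1 of 6 siRNA embryos correlated best with its own number. The replicate block gave 0 falling mitochondrial genes and 155 calls in ESCs, and in 12 embryos 9 rising and 1 falling nuclear genes, 1 falling mitochondrial gene, 9 assembly and mitochondrial expression genes and 902 calls, against 1423 calls in those embryos without the block. The crossed ESC pairing, chosen after seeing the data, gave 2 rising nuclear, 9 falling mitochondrial, 4 assembly and mitochondrial expression genes and 1475 calls. Depth limits genes near 3 counts, among them Cox6a2, Cox7b2 and Cox4i2 in embryos.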
